A study of Canis lupus familiaris with 8 samples.

Results

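Superoxide, the radical formed when oxygen takes up a single electron, and hydrogen peroxide, to which it is converted, are made on purpose or as by-products by a small set of enzymes. Of 9 genes chosen as such sources, the platform annotation gave a single symbol to probe sets of 6: CYBB, RAC1, RAC2, XDH, MAOA and MAOB. These 6 genes were read by 8 of the 23913 probe sets on the array, 3 of them for MAOA and 1 for each other gene. The remaining 3, the oxidase subunits NCF1 and NCF4 and the oxidase NOX4, carried no probe set by that rule and were not analysed here. Of the 8, the test could take 6 that were not too dim, 1 for each gene.

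Each array carried total cardiac RNA of 1 male dog weighing between 23 and 27 kg, and the labels name neither the age nor the part of the heart. The 4 dogs of the HHcy group had received methionine in their drinking water for 2 weeks, which raises blood homocysteine (hyperhomocysteinemia, HHcy), and 4 dogs without it served as controls. The title of the series names oxidative stress and loss of nitric oxide, with which superoxide reacts. The comparison addresses whether transcripts of the chosen genes, which take part in making superoxide or hydrogen peroxide, differ between the groups. The methionine dose and the homocysteine reached in each dog were not analysed here. The values are MAS5 signals, a summary of each probe set's brightness on a linear scale, and the number of arrays limits their precision.

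In phagocytes the NADPH oxidase is assembled on demand: the membrane subunit CYBB (gp91phox, also called NOX2) carries the electrons, and cytosolic subunits join it together with a Rac GTPase, RAC2 in most blood cells and RAC1 in most other cells. Xanthine dehydrogenase, encoded by XDH, breaks down purines and passes electrons to oxygen in its oxidase form. The monoamine oxidases MAOA and MAOB sit on the outer mitochondrial membrane and release hydrogen peroxide as they break down catecholamines and other amines. In the heart CYBB is known from immune cells, endothelium and myocytes, and monoamine oxidases from myocytes and nerve endings.

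One array stands apart. On HHcy 6 the summed signal of 11 cardiomyocyte markers was 20046, while the other HHcy arrays had 233211 to 269234 and the control arrays 215779 to 339020, so the labelled tissue was poorly represented by its defining markers there. MYL3, a ventricular myosin light chain, had a signal of 27.4 on that array. The mean log2 ratio of 3' to 5' signal for actin and GAPDH, which rises when RNA is broken, reached 6.31 on HHcy 6 and 4.02 on HHcy 5, and lay between -0.43 and 1.89 elsewhere. On HHcy 6 the transcripts disagreed, with unlogged ratios of 600 for actin and 10.5 for GAPDH, next to 15.3 and 17.2 on HHcy 5. The mean therefore does not settle which of these arrays had the more broken RNA. The fold change of each of the 6 genes is therefore also given without HHcy 6, and where it matters without HHcy 5 as well. In bulk tissue such as this, a transcript carried by fewer cells and a transcript at a lower level per cell cannot be told apart.

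None of the 6 genes passed the test between HHcy and control hearts. MAOB had the largest fold change of the 6, 2.96-fold, and RAC2 the next, 1.95-fold, while CYBB and XDH had smaller values above 0, and RAC1 and MAOA had values below 0. With limma and Benjamini-Hochberg adjustment over all tested probe sets, 0 of the 6 tested probe sets had an adjusted p under 0.05, where 0.0979% of all 14301 tested probe sets did, and 2 of the 6, MAOB and RAC2, had an unadjusted p under 0.05, where 17.8% did. In the exact permutation test MAOB alone had an unadjusted p under 0.05. With 4 against 4 dogs that test gives such a p only where the groups do not overlap, as in 11.4% of all tested probe sets. The median log2 fold change of the 6 genes was 0.52, beside 0.14 for the 5015 tested genes. It was 0.48 without HHcy 6, 0.31 without control 4, 0.33 without HHcy 5 and HHcy 6, 0.24 with the 3'/5' ratio held in the fit, and 0.18 with arrays scaled to a common median, where the median of all tested probe sets was -0.19. Of the 6, 4 lay above 0, where 59.98% of tested probe sets did. Groups that do not overlap, with HHcy higher, were seen in 1 of the 6, MAOB, and in 7.49% of all tested probe sets. With HHcy lower they were seen in 0 of the 6 and in 3.89% of all, 11.4% in either direction, and 6 genes are too few to read a difference from these shares.

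**Figure D1:**
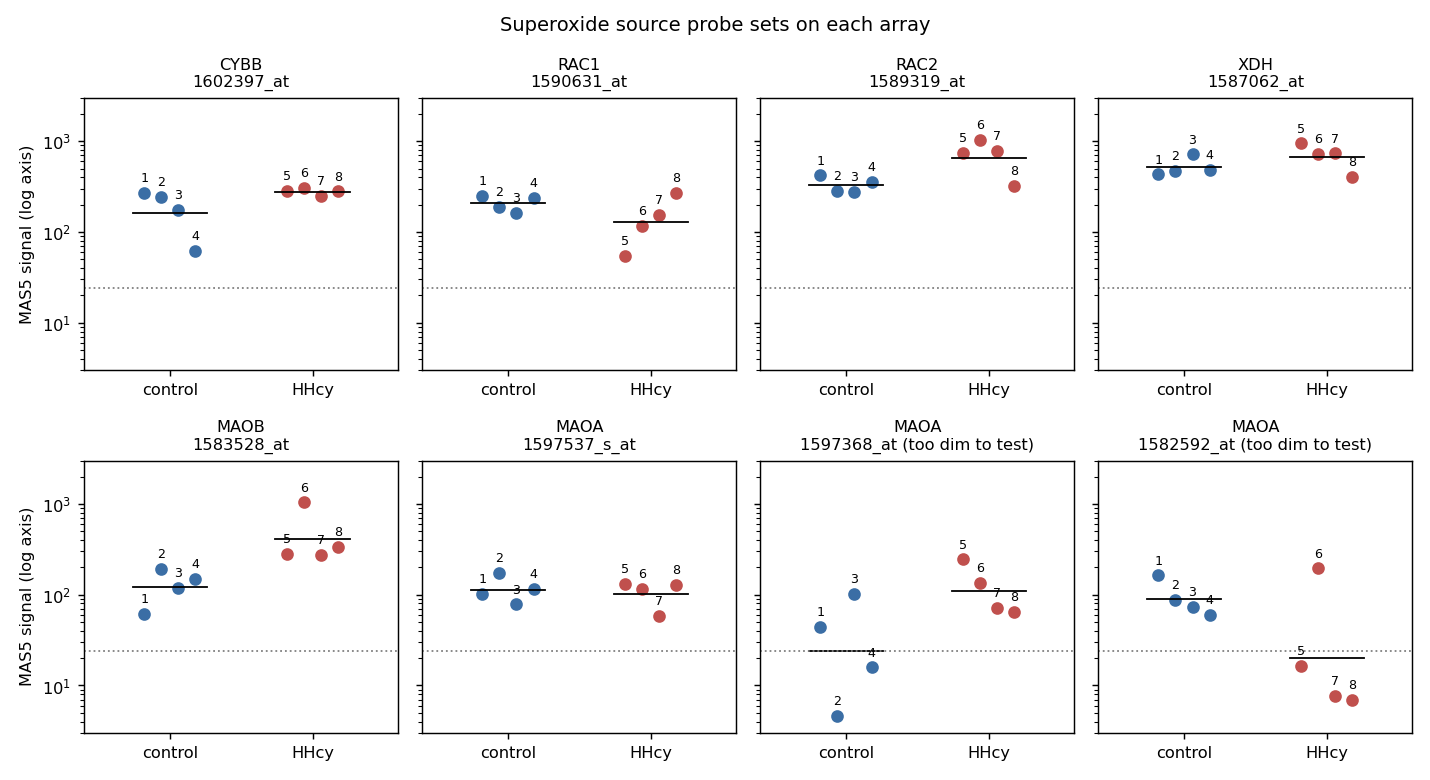
MAS5 signal (log axis) of each of the 8 probe sets on each array; points are dogs numbered as in the labels, bars are geometric means of 4 dogs, and the dotted line marks the pseudocount of 24. The 4 HHcy dogs lie above all controls for MAOB, from 276 to 1040 against 61.6 to 190, and overlap the controls in every other panel.

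Of the oxidase itself, the catalytic subunit CYBB (NCBI gene 491825) had signals of 267, 245, 176 and 62.3 on controls 1 to 4 and of 282, 303, 250 and 280 on HHcy 5 to 8. The HHcy dogs were close together, with a mean of 279 ± 21.8 (SD, n = 4), while the controls spread more widely around 188 ± 92.0 (SD, n = 4). The groups overlapped, since HHcy 7 lay under control 1, and control 4 was the lowest of all 8. The log2 fold change was 0.66 ± 0.38 (SE, 95% interval -0.17 to 1.48), with a limma adjusted p of 0.375 (0.257 to 0.933 over the alternatives tried). The value rested on control 4: it was 0.27 ± 0.29 (SE, limma adjusted p 0.666) without that dog, and 0.62 ± 0.41 (SE) without HHcy 6.

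RAC2 (NCBI gene 481271), the Rac GTPase of blood cells, had signals of 421, 283, 277 and 355 on the controls and of 738, 1036, 782 and 321 on HHcy 5 to 8. Of the HHcy dogs 3 lay above every control, and HHcy 8 lay among the controls. The means were 334 ± 67.8 and 719 ± 296 (SD, n = 4 each), a log2 fold change of 0.96 ± 0.35 (SE, 95% interval 0.21 to 1.72) with a limma adjusted p of 0.203 (0.111 to 0.933 over the alternatives) and an unadjusted p of 0.0170. An exact two-sided permutation test of the 4 against 4 dogs gave p = 0.0857. Leaving out HHcy 8 gave 1.29 ± 0.29 (SE, limma adjusted p 0.111), leaving out HHcy 6 gave 0.76 ± 0.33 (SE, limma adjusted p 0.322), and leaving out HHcy 5 and HHcy 6 gave 0.58 ± 0.38 (SE, limma adjusted p 0.679).

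RAC1 (NCBI gene 403955), the more widely expressed Rac GTPase, did not share that pattern. Its signals were 252, 190, 163 and 237 on the controls and 54.9, 117, 154 and 267 on HHcy 5 to 8. HHcy 5, 6 and 7 lay below every control and HHcy 8 above every control, so the groups overlapped. The means were 211 ± 41.2 and 148 ± 89.2 (SD, n = 4 each) and the log2 fold change was -0.58 ± 0.39 (SE, 95% interval -1.44 to 0.28, limma adjusted p 0.440, 0.268 to 0.990 over the alternatives). HHcy 5, an array with a high 3'/5' ratio, carried much of it: the log2 fold change was -0.26 without HHcy 5, -0.53 without HHcy 6 and -0.025 without either. The RefSeq gene table lists RAC2 as a synonym of the RAC1 record, so an older name could be in use for either. The annotation gives the pair different gene identifiers, but which Rac each probe set reads was not checked against sequence.

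XDH (NCBI gene 483028) had signals of 431, 466, 715 and 486 on the controls and of 948, 729, 733 and 406 on HHcy 5 to 8. Again 3 HHcy dogs lay above every control, although HHcy 6 and HHcy 7 did so narrowly, over the 715 of control 3, and HHcy 8 was the lowest of all 8. The means were 525 ± 129 and 704 ± 223 (SD, n = 4 each), with a log2 fold change of 0.38 ± 0.30 (SE, 95% interval -0.28 to 1.03, limma adjusted p 0.512, 0.297 to 0.986 over the alternatives). It was 0.34 without HHcy 6, 0.61 without HHcy 8 (limma adjusted p 0.297), 0.084 without HHcy 5 and HHcy 6, and 0.023 when arrays were scaled to a common median, which moved the median of all tested probe sets from 0.15 to -0.19.

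Among the monoamine oxidases, MAOB (NCBI gene 403451) gave the clearest separation of the groups. Its signals were 61.6, 190, 119 and 150 on the controls and 282, 1040, 276 and 336 on HHcy 5 to 8. Every HHcy dog lay above every control, and HHcy 6, the array with few cardiomyocyte transcripts, stood well above the other HHcy dogs. The means were 130 ± 54.3 and 484 ± 372 (SD, n = 4 each). The log2 fold change was 1.57 ± 0.44 (SE, 95% interval 0.60 to 2.54), with a limma unadjusted p of 0.00436 and adjusted p of 0.151 (0.0812 to 0.914 over the alternatives), and 1.68% of tested probe sets had a higher one. The exact two-sided permutation test gave p = 0.0286, the smallest that 4 against 4 dogs allow, and with that test adjusted over all tested probe sets p = 0.251. Without HHcy 6 the log2 fold change was 1.13 ± 0.36 (SE, limma adjusted p 0.213), and without HHcy 5 and HHcy 6 it was 1.17 ± 0.42 (SE, limma adjusted p 0.542), the remaining HHcy dogs still lying above every control.

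MAOA (NCBI gene 403450), whose gene neighbours MAOB in the RefSeq table, was read by 3 probe sets that disagreed. The brightest, 1597537_s_at, had signals of 102, 173, 78.2 and 116 on the controls and of 133, 116, 57.8 and 127 on HHcy 5 to 8. The groups overlapped throughout, with means of 117 ± 40.3 and 108 ± 34.4 (SD, n = 4 each) and a log2 fold change of -0.10 ± 0.37 (SE, 95% interval -0.90 to 0.71, limma adjusted p 0.904), or -0.14 without HHcy 6. That interval leaves room for a fold of 0.535 to 1.63, so it does not show that MAOA was the same in each group.

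The other MAOA probe sets fell under the filter on dim signals, which left out the 40% with the lowest mean. On 1597368_at the signals were 44.1, 4.63, 102 and 15.8 on the controls and 244, 134, 71.8 and 64.5 on HHcy 5 to 8, so that HHcy 5 and HHcy 6 lay above every control. On 1582592_at they were 163, 88.2, 72.9 and 60.2 on the controls and 16.3, 195, 7.64 and 6.89 on HHcy 5 to 8. There HHcy 5, 7 and 8 lay below every control and under the pseudocount of 24, while HHcy 6 was the highest of all 8. Fitted with no filter, the pair had log2 fold changes of 1.30 (limma adjusted p 0.311) and -1.08 (limma adjusted p 0.437), values that depend on the pseudocount since some signals lie under it. No direction can be given for MAOA as a gene.

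**Figure D2:**
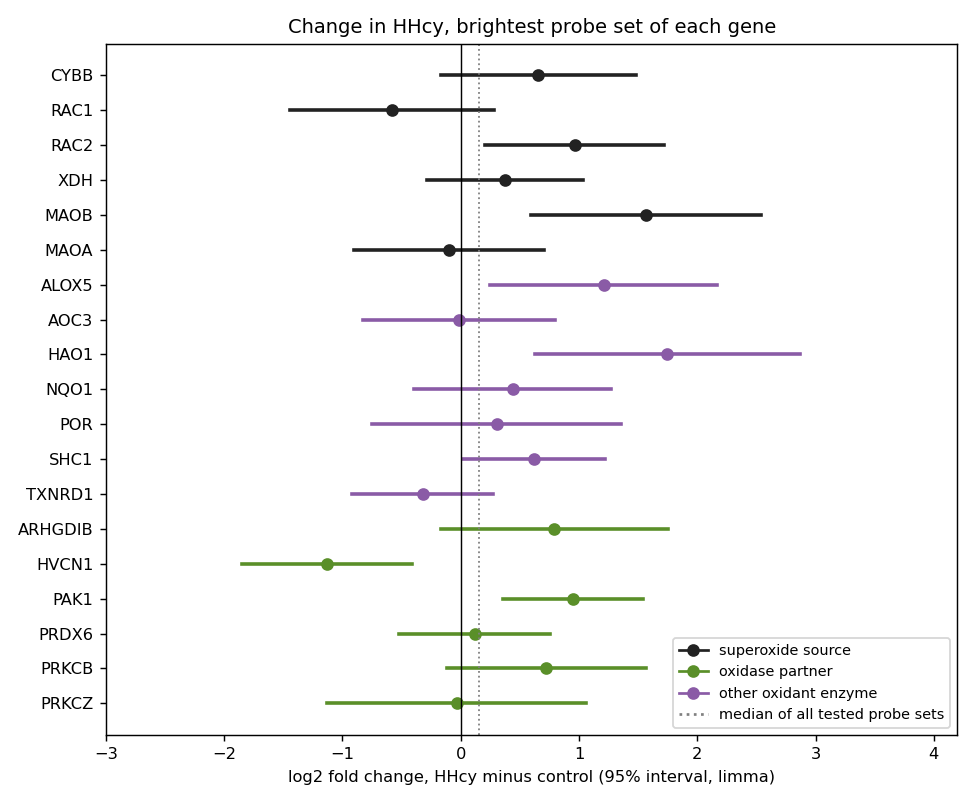
Log2 fold change, HHcy minus control, with its 95% interval from limma, for the brightest tested probe set of each superoxide source (black), oxidase partner (green) and other oxidant enzyme (purple); the dotted line is the median of all tested probe sets, 0.15. The intervals of MAOB and RAC2 lie above 0 and those of CYBB, RAC1, XDH and MAOA include it, while no gene shown passed after adjustment. HAO1 is drawn, but its fold is not quoted in the text, since a pair of its controls lay under the pseudocount.

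Of 34 genes listed as partners or regulators of NADPH oxidases, 11 had a probe set of their own and 6 were bright enough to test. None passed with limma (lowest adjusted p 0.151); 1 was higher and 1 lower at an unadjusted p under 0.05, where 11.9% and 5.94% of all tested probe sets were. Their median log2 fold change was 0.42, with 4 above 0 and 2 below. PAK1, a kinase switched on by Rac and Cdc42, had signals of 125, 188, 126 and 203 on the controls and of 283, 355, 347 and 325 on HHcy 5 to 8, and every HHcy dog lay above every control. Its log2 fold change was 0.95 ± 0.27 (SE, limma adjusted p 0.151).

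HVCN1, the proton channel that balances the charge moved by the phagocyte oxidase, lay in the other direction. Its signals were 823, 1505, 797 and 1178 on the controls and 391, 299, 764 and 505 on HHcy 5 to 8, and every HHcy dog lay below every control, HHcy 7 by a small margin. The log2 fold change was -1.13 ± 0.33 (SE, limma adjusted p 0.158). PRKCB, a protein kinase C that phosphorylates oxidase subunits, had 0.72 ± 0.38 (SE, limma adjusted p 0.340), and ARHGDIB, the leukocyte protein that holds Rac GTPases in the cytosol, had 0.79 ± 0.44 (SE, limma adjusted p 0.358), with overlapping groups for each. The dual oxidases DUOX1 and DUOX2, relatives of CYBB, were too dim to test, with brightest means of 41.2 and 51.4 in controls and 93.5 and 70.2 in HHcy. Their other probe sets had means of 11.8 and 13.8 in controls and 52.8 and 59.9 in HHcy. On that of DUOX2 the groups did not overlap, at 4.88 to 25.1 in controls and 31.0 to 83.5 in HHcy, signals near the pseudocount or under it in controls.

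Of 23 other enzymes that make or handle oxidants, 12 had a probe set and 7 were tested. None passed (limma lowest adjusted p 0.159), 3 were higher and 0 lower at an unadjusted p under 0.05, where 11.9% and 5.94% of all tested probe sets were, and the median log2 fold change was 0.44. HAO1, the peroxisomal glycolate oxidase of liver, had signals of 8.68, 79.3, 69.1 and 4.21 on the controls and of 237, 133, 137 and 147 on HHcy 5 to 8; the groups did not overlap, and a pair of the controls lay under the pseudocount, so no fold is given (limma adjusted p 0.159). ALOX5, the first enzyme of leukotriene synthesis in white blood cells, had a log2 fold change of 1.21 ± 0.44 (SE, limma adjusted p 0.206), with HHcy 7, at 136, among the controls. SHC1, an adaptor with a long isoform tied to mitochondrial peroxide, had 0.62 ± 0.27 (SE, limma adjusted p 0.273), with HHcy 8, at 1303, among the controls. TXNRD1, the cytosolic thioredoxin reductase, had -0.32 ± 0.27 (SE, limma adjusted p 0.535). The other probe sets of these genes were too dim to test. Their control and HHcy means were 46.3 and 69.6 for ALOX5, 43.6 and 14.5 for SHC1, and 91.0 and 14.5 for TXNRD1. That of SHC1 thus lay in the opposite direction to its brightest probe set.

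The arrays did not deviate alike for all 6 genes. Taken as log2 differences from the control mean, HHcy 5, 6 and 7 had RAC2 values of 1.11, 1.58 and 1.19 and XDH values of 0.85, 0.48 and 0.49, with RAC1 at -1.55, -0.72 and -0.38. HHcy 8 differed from them on the same genes, at -0.034 for RAC2, -0.32 for XDH and 0.33 for RAC1, while its CYBB and MAOB values, 0.67 and 1.30, lay within their range. Scaling the arrays to a common median gave 0.62 for RAC2, 0.34 for CYBB and -0.89 for RAC1.

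Markers of other cells and of RNA quality were compared over the same arrays. Of 16 myeloid markers 13 were tested, and 12 of the 13 had a log2 fold change above 0, where 59.98% of all tested probe sets did, with a median of 1.20. None passed, and 9 were higher at an unadjusted p under 0.05, where 11.9% of all were. Their summed signal ran from 6797 to 10640 on the controls and from 14380 to 27444 on the HHcy arrays, so the ranges did not overlap. Array by array their median difference was 1.03, 1.50, 1.09 and 0.65 on HHcy 5 to 8, next to 1.11, 1.58, 1.19 and -0.034 for RAC2. That likeness was not particular to myeloid markers. The fibroblast markers had 1.96, 2.16, 1.50 and 0.38 on the same arrays. Over the 8 arrays RAC2 had a Pearson r of 0.87 with the myeloid medians, 0.85 with the fibroblast medians and 0.85 with the 3'/5' ratio. In the same order CYBB had 0.59, 0.76 and 0.36, MAOB 0.67, 0.68 and 0.73, and XDH 0.60, 0.70 and 0.65. RAC1 and MAOA had an r below 0 with each. All of these values include the difference between the groups. Of 14 neutrophil markers 3 had a probe set: ELANE, at 47.9 ± 29.5 in controls and 46.1 ± 47.7 in HHcy, and CXCR2, at 58.7 ± 36.5 and 56.7 ± 48.2 (SD, n = 4 each), were too dim to test. MMP9 had signals of 119, 125, 14.7 and 14.6 on the controls and of 183, 165, 155 and 183 on HHcy 5 to 8 on its brightest probe set (limma adjusted p 0.212). Controls 3 and 4 lie under the pseudocount there, so a fold is left out. Its other probe sets, too dim to test, had means of 41.1 and 31.6 in controls and 96.8 and 9.85 in HHcy, in opposite directions. Of 8 fibroblast markers 5 were tested, 4 of them above 0, with a summed signal of 12698 to 19655 on the controls and 22532 to 59885 on the HHcy arrays. Lymphocyte markers, 3 of 11 tested, were above 0 in all 3 by their brightest probe sets, with a median of 0.56. Their summed signal was 225 to 645 on the controls and 647 to 1069 on the HHcy arrays. For CD4 the probe set counted there had a log2 fold change of 1.46 ± 0.46 (SE, limma adjusted p 0.174). A dimmer tested probe set of CD4 lay in the opposite direction, at -1.29 ± 0.52 (SE, limma adjusted p 0.239). Endothelial markers, 4 of 8 tested, had a median of -0.20 with 1 above 0, and their sums overlapped, at 20220 to 27924 on the controls and 21635 to 31886 on the HHcy arrays. Smooth muscle and pericyte markers, 3 of 6 tested, summed to 60261 on HHcy 6, the array highest for MAOB and RAC2, against at most 6965 on any other. The part of these other cells in the values of CYBB, RAC2, XDH and MAOB was not tested.

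RNA quality and the cardiomyocyte signal were each held in a fit of their own. The mean 3'/5' ratio stands for RNA quality here, and its value on HHcy 6 comes mostly from actin. With the mean log2 3'/5' ratio held, the log2 fold change was 0.41 ± 0.37 for RAC2, 1.06 ± 0.53 for MAOB, 0.65 ± 0.50 for CYBB, 0.070 ± 0.36 for XDH and -0.15 ± 0.48 for RAC1 (SE), and RAC2, XDH, RAC1 and MAOB lay nearer to 0 than without it. That shift was not particular to these genes, as the median of all tested probe sets went from 0.15 to 0.067. Probe sets with an unadjusted limma p under 0.05 fell from 1700 to 478 with HHcy higher, and from 849 to 305 with HHcy lower. The ratio itself was uneven between the groups, averaging 0.90 over the control arrays against 3.38 over the HHcy arrays. Whether RNA quality accounts for the values nearer to 0 was not tested. With the mean of the cardiomyocyte markers held, MAOB had 1.07 ± 0.35 and RAC2 0.73 ± 0.34 (SE). None of the 6 genes passed in either fit.

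**Figure D3:**
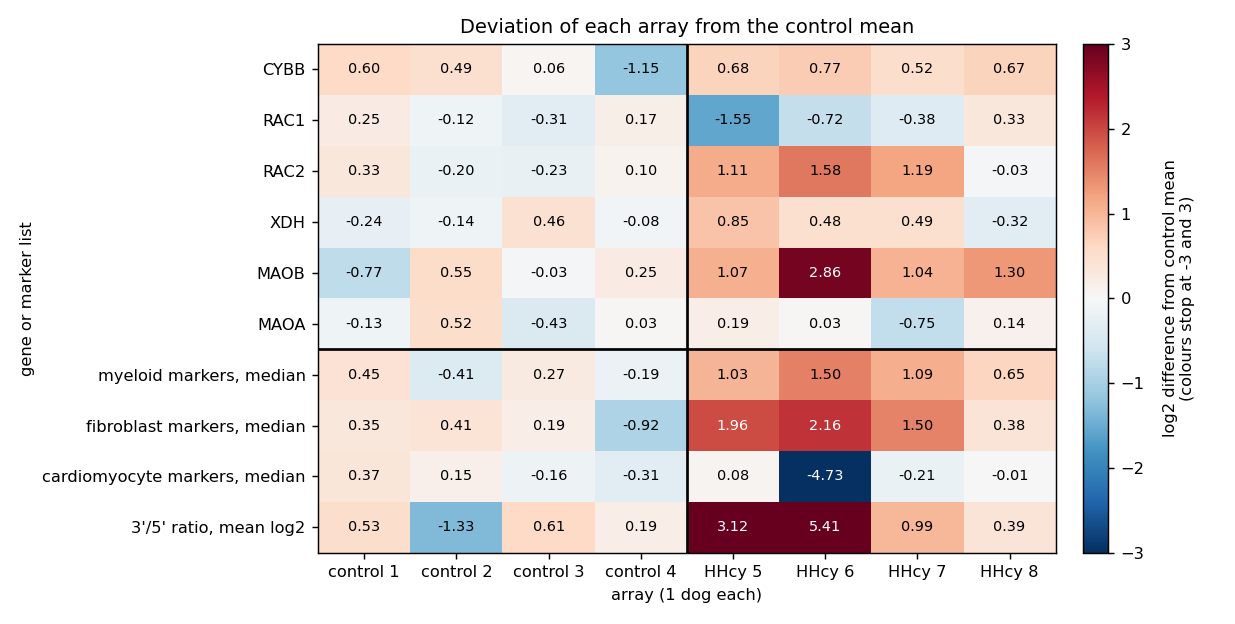
Log2 difference of each array (columns, 1 dog each) from the control mean for the 6 tested genes (upper rows), the median of 3 marker lists, and the mean log2 3'/5' ratio (bottom row); colours stop at -3 and 3. HHcy 6 stands out at -4.73 for cardiomyocyte markers and 2.86 for MAOB, and HHcy 8 has the smallest myeloid value of the HHcy arrays, 0.65.

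The genes whose signals followed each source most closely over the 8 arrays were taken from 5009 other tested genes by Pearson's r of the log2 values, as a description. For MAOB they were TAF1D, CYYR1 and LOC478670 (r 0.98, 0.97 and 0.96), for RAC2 SRPX, SNX6 and SEMA4F (0.98, 0.97 and 0.95), and for CYBB ALDH16A1, XRCC2 and WFDC1 (0.98, 0.97 and 0.96). For RAC1 they were PNPLA7, MIPEP and EMILIN1 (0.97, 0.97 and 0.92), for XDH GNL2, MAP3K4 and FANK1 (0.94, 0.91 and 0.90), and for MAOA SCARF1, MAGED1 and MSH6 (0.97, 0.95 and 0.93). Without HHcy 6 the r of MAOB with TAF1D was 0.98 and that of RAC2 with SRPX 0.97. Values this high are to be read as the top of a wide search with 8 arrays, which share the difference between the groups and that of HHcy 6.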

How the data were processed

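Per the submitters' processing notes the authors made the signals with MAS5, of a version that the sources used here do not give; the deposited file holds them as intensity per probe set, not logged. Each array's mean, with 2% left out at each end, was about 500.1 units, so no array was rescaled. Detection calls were not used here. Names come from the platform annotation (1 symbol for 10549 probe sets, several for 138, none for 13226), and the 6 genes matched the RefSeq table by identifier.

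Values were analysed as log2(value + 24), close to the 20th percentile, which understates folds of dim genes. The 77 control probe sets and the dimmest 40% by mean log2 value (under a signal of about 69.7) were left out, leaving 14301. Titles gave the groups. The fit used limma 3.58.1 in R 4.3.3 (lmFit, then eBayes with trend), Benjamini-Hochberg adjustment and a threshold of 0.05. The brightest probe set stands for its gene. Others are given for MAOA, DUOX1, DUOX2, ALOX5, SHC1, TXNRD1, MMP9 and CD4, and were left out for the remaining markers and the likeness genes. In a simulation of this comparison over 14301 probe sets, the fit recovered 12% of 50 that differed by 1 log2 unit and 72% of 50 that differed by 2, and made 7 false calls. The labels speak of separate dogs, with no batch or date.

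Every member is named. Of the partner and other oxidant enzyme lists, genes with an unadjusted p under 0.05 are named, or the 4 of lowest p where fewer, and for likeness the 3 genes of highest r. Marker lists are given as counts and sums, the sums over every gene of a list with a probe set, tested or not. DUOX1, DUOX2, MYL3, ELANE, CXCR2, MMP9 and CD4 were named after their values were seen. Members and lists were chosen with earlier results of these data known. Alternatives were other scalings, pseudocounts of 6 and 96, other filters and variance models, an exact permutation test, leaving out arrays, and a covariate (the 3'/5' ratio or the mean of cardiomyocyte markers).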

Additional observations from a re-analysis of the deposited data

Results flagged for a closer look

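Of 16 groups of 4 arrays, 8 probe sets in each of the control and HHcy groups, 2 held an array whose log2 value lay far from the others, by Dixon's gap at the 95% level, which chance gives in about 1 of 20 groups. Each was HHcy 6: MAOB had a signal of 1040 there, against 276 to 336 on the other HHcy arrays, and the MAOA probe set 1582592_at had 195, against 6.89 to 16.3.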

How the results depend on the processing

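None of the tested member probe sets passed under any of the 19 alternative fits; the lowest limma adjusted p ran from 0.0812 for MAOB with array weights to 0.914 when the fit held the 3'/5' ratio. Of 119 gene values under alternatives, 117 kept their direction and 0 passed. MAOA changed sign without control 2 (0.075) and without HHcy 7 (0.12), within -0.24 to 0.12 over the settings that leave out 1 array. The median of the member genes, 0.52, was 0.18 with median scaling, 0.33 with HHcy 5 and HHcy 6 left out and 0.24 in the fit that held the 3'/5' ratio, and 0.31 to 0.63 leaving out 1 array. In that fit RAC2 had 0.41 and MAOB 1.06, and the cause was not tested. MAOA was not tested with the dimmest 60% left out. Averaging the tested probe sets of a gene changed nothing, as each gene had 1. No paired analysis was possible because the groups share no replicate numbers.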

Other observations

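Among pairs of the 8 probe sets, RAC1 and XDH ordered the arrays most nearly in reverse, with a Pearson r of -0.91 and a Spearman rho of -0.95 over the 8 arrays, and an r of -0.89 once each group's mean was taken off. HHcy 5 was the lowest for RAC1 and the highest for XDH, and HHcy 8 the highest for RAC1 and the lowest for XDH. The pair was picked after its values were seen, and each gene's extreme lies on HHcy 5, an array with a high 3'/5' ratio, so the relation is a description without a test.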
